A study of Drosophila melanogaster with 66 samples.

Results

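The cytosolic ribosomal protein genes encode the proteins of the large (RpL) and small (RpS) subunits of the cytoplasmic ribosome. Members were the genes whose single symbol in the array annotation began with RpL or RpS followed by a digit, P or A, with 1 probe set per gene, that of the highest mean signal over the untreated gradient arrays. The rule found 41 genes among the 11983 genes with a probe set of a single symbol, and 47 probe sets in all. Of the 41 members, 16 encode large-subunit proteins, 10 encode small-subunit proteins, 10 belong to pairs of gene copies told apart by a letter or number at the end of the symbol, and 5 carry the ending -like. The reference annotation lists 92 symbols of this form, and genes of this class without a single-symbol probe set in the annotation were not analysed here.

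Embryos of the wild-type strain Canton S were collected 0-2, 4-6 and 8-10 h after egg laying, incubated with cycloheximide, which freezes ribosomes on mRNA, and their soluble extracts were sedimented through sucrose gradients. Each gradient gave 8 arrays, a pool of fractions 1-5 and the single fractions 6 to 12, with 2 gradients per period and 48 such arrays in all. Extracts of the same strain and ages treated with EDTA, which takes up the magnesium that holds ribosomes together, gave 4 pooled arrays per period from 1 gradient each. Unfractionated RNA of untreated embryos gave 2 arrays per period, so that the series holds 66 arrays of the Drosophila Genome 2.0 type in whole embryos of mixed tissues, where less mRNA per cell and fewer cells with the mRNA cannot be told apart.

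A ribosome holds 1 copy of most of its proteins, and an embryo needs their mRNAs in large amounts and in balance. In animals these mRNAs typically begin with a run of pyrimidines that lets the cell shift them as a group between free ribonucleoprotein particles and polysomes. Eggs carry a maternal supply of ribosomes and of these mRNAs, which the embryo draws on before its own transcription begins.

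Occupancy is used here for the percentage of an mRNA's signal over the whole gradient that lay in fractions 6-12, where mRNAs bound to several ribosomes sediment. A probe set with the same signal on every array would have an occupancy of 58.3%, since the pool stands for 5 fractions. The Logit is the natural logarithm of the signal in fractions 6-12 over that in fractions 1-5. Signals of the members were strong: 30 of 41 reached a log2 signal of 13 or more on at least 1 gradient array, where the highest value of any array was 14.25, and 11 stayed below 13 throughout. The part of this ceiling in the shares of strong mRNAs was not tested. Of the 41 members, 38 passed the signal filter and were tested, while RpL10Aa, RpL22-like and RpS28-like did not pass, had log2 signals of at most 4.55 on any gradient array and had occupancies between 45.4% and 66.7%. RpL22-like is a paralogue known from the male germ line of flies. The probe sets of 14 members carry the suffix that marks probes shared with further transcripts, so that their signal may include related transcripts.

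Marker genes followed the labelled ages with exceptions. The maternal mRNA osk had log2 signals of 12.47 and 12.42 at 0-2 h, 5.95 and 8.43 at 4-6 h, and 6.73 and 8.20 at 8-10 h in unfractionated RNA. The segmentation gene en had 5.73 and 6.50 at 0-2 h and 10.64 and 10.71 at 4-6 h, and the glial gene repo at most 4.97 up to 4-6 h and 8.80 and 8.83 at 8-10 h. The 2 unfractionated arrays of an age differed in several markers. Array 2 was higher in osk at 4-6 and 8-10 h, as given above. The maternal mRNA bcd had 6.14 and 7.48 at 4-6 h and 6.12 and 6.89 at 8-10 h. The muscle gene Mlp60A had 5.92 and 8.92 at 4-6 h and 9.01 and 10.93 at 8-10 h. Array 2 was lower in some others, such as elav, with 9.72 and 9.34 at 4-6 h and 11.56 and 11.03 at 8-10 h. The cause was not tested. Both arrays of each age correlated at 0.982 to 0.992. The haemocyte marker Hml did not rise above 5.07 in any period, and the eggshell, yolk and accessory gland genes listed as not expected in embryos stayed at or below 5.81.

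At each age the members had a smaller share of their signal in the heavy fractions than the genes tested. The median occupancy over the 41 members was 36.9% at 0-2 h, 42.7% at 4-6 h and 48.9% at 8-10 h, against 59.1%, 62.3% and 62.7% over the 8007 genes tested at the same ages. By gradient the members' median was 35.6% and 39.4% at 0-2 h, 42.8% and 40.8% at 4-6 h, and 50.5% and 47.4% at 8-10 h, so the gradients of different ages did not overlap. The occupancy of a single member differed between the gradients of an age by a median of 3.29, 2.33 and 2.17 percentage points. The members also drew together: the SD over the 41 genes was 12.2, 9.46 and 7.67 percentage points at 0-2, 4-6 and 8-10 h, and over the 26 subunit proteins without copies or -like genes it was 7.12, 6.07 and 4.52. Over the genes tested the SD was 16.6, 12.0 and 11.9. The 11 members below a log2 signal of 13 on all gradient arrays were all copies or -like genes. They include the 3 members that did not pass the signal filter. Their medians were 55.9%, 49.7% and 56.2% at 0-2, 4-6 and 8-10 h, higher than the members as a whole and without the same order of ages. These medians are the values of RpL22-like (0-2 and 4-6 h) and RpS28-like (8-10 h), which failed the filter. The part of background signal in them was not tested.

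**Figure D1:**
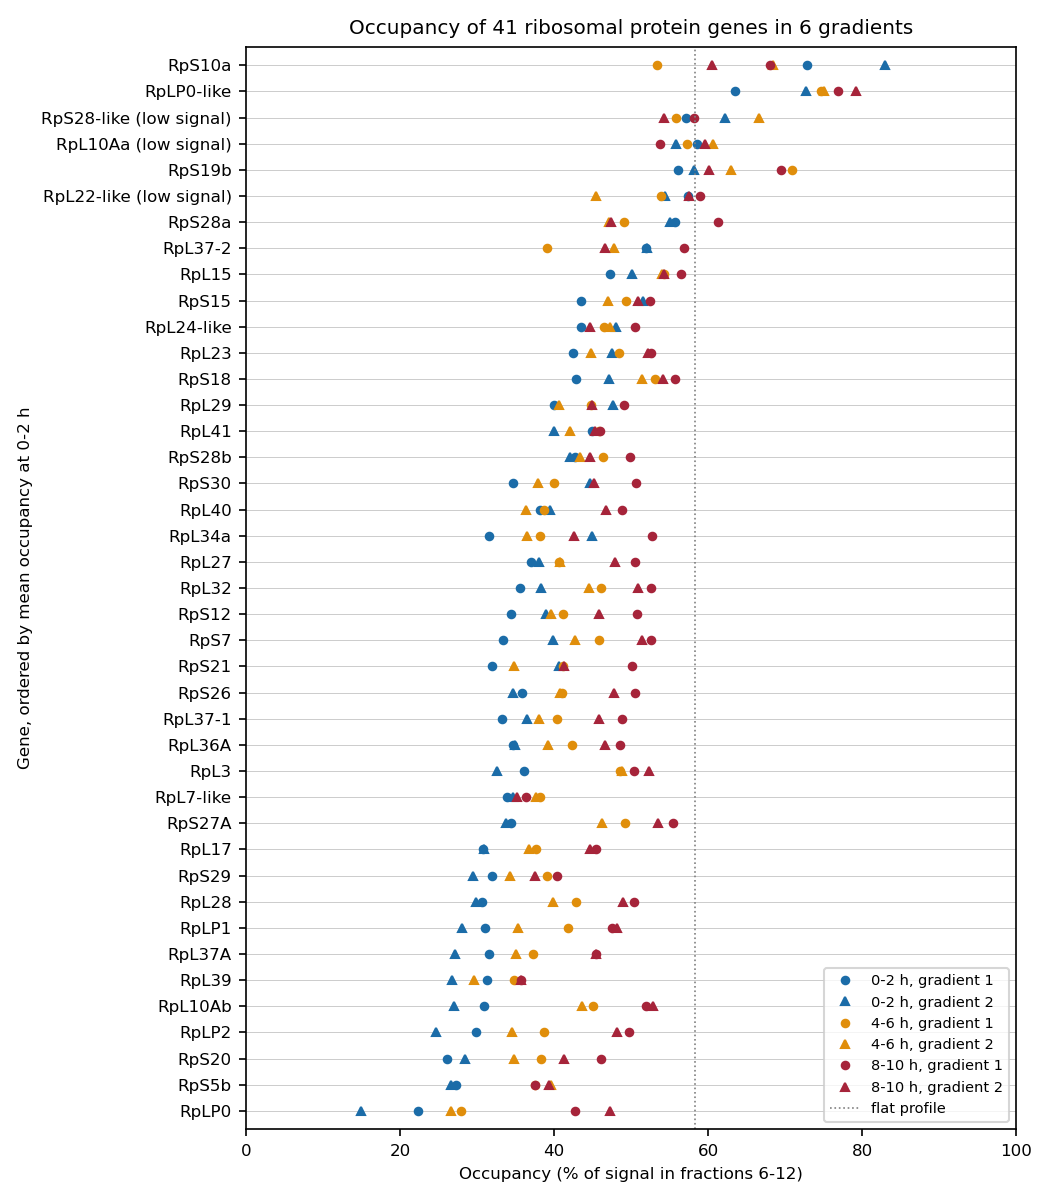
Occupancy (x axis, % of signal in fractions 6-12) of each of the 41 ribosomal protein genes (rows, ordered by their mean at 0-2 h) in every gradient; colours mark the age, circles and triangles gradients 1 and 2, and the dotted line a flat profile at 58.3%. RpLP0 stands lowest at 0-2 h with 22.2% and 14.8%, RpS10a highest with 72.9% and 83.0%, and for most rows the 8-10 h points lie to the right of the 0-2 h points.

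In 32 of the 41 members both gradients of 8-10 h had a higher occupancy than both of 0-2 h; 42.7% of the genes tested did so. The 9 others were RpL10Aa, RpL24-like, RpL29, RpL34a, RpL37-2, RpS10a, RpS15, RpS28-like and RpS28a. The order of the members changed in part, with a Spearman correlation between the occupancies at 0-2 and 8-10 h of 0.681 over the 41 genes and of 0.569 over the 26 subunit proteins, measured with the same probe sets on both sides. Large-subunit and small-subunit genes did not differ in a constant direction: the median over the 16 large-subunit genes minus that over the 10 small-subunit genes was 0.734 and -5.64 percentage points in the gradients of 0-2 h, 0.913 and -0.683 at 4-6 h, and -1.74 and 0.760 at 8-10 h, with both signs at every age.

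Among the members tested, the Logit rose at 8-10 h relative to 0-2 h in 19 of 38, or 50%, against 28.7% of all probe sets tested, and fell in 1, against 20.8% (limma, adjusted over all 10358 probe sets). The 19 were 10 large-subunit, 5 small-subunit and 3 copy genes and RpLP0-like, and the 1 that fell was RpS10a. From 0-2 to 4-6 h the Logit rose in 6 members, against 26.3% of probe sets, and fell in 1, against 19.7%; from 4-6 to 8-10 h it rose in 1, against 3.48%, and fell in 0, against 2.78%, also at an unadjusted p under 0.05. The share of members called was thus below the background in each single step and above it over the whole interval. The median difference over the 38 members was 0.23, 0.27 and 0.44 in the contrasts 4-6 minus 0-2 h, 8-10 minus 4-6 h and 8-10 minus 0-2 h, against 0.03, 0.01 and 0.09 over the genes tested. In these contrasts 31, 35 and 35 members had a positive difference. How many of all genes tested did so is not given. Without gradient 1 of 0-2 h fewer members rose over the whole interval. Fewer rose in the earlier step without gradient 2 of 0-2 h or without either gradient of 4-6 h. The share of all probe sets called without these gradients is not given, so the place of the members relative to it is open.

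The P stalk of the large subunit, built of RpLP0 and of RpLP1 and RpLP2, recruits elongation factors to the ribosome. RpLP0 had the lowest occupancy of all members at 0-2 h, 22.2% and 14.8%, followed by 27.9% and 26.6% at 4-6 h and 42.7% and 47.2% at 8-10 h. The 3 ages did not overlap in either gradient. Its Logit rose by 1.30 ± 0.19 (SE) from 0-2 to 8-10 h (limma adjusted p = 5.01e-05), the largest rise among the members, and it was the single member with a rise from 4-6 to 8-10 h, 0.78 ± 0.19 (adjusted p = 0.0253). That call was lost without either gradient of 4-6 h or of 8-10 h. RpLP2 had occupancies of 29.9% and 24.7%, 38.7% and 34.5%, and 49.7% and 48.1% at the 3 ages, a rise of 0.94 ± 0.18 over the whole interval (adjusted p = 4.04e-04). RpLP1 had 31.0% and 28.0%, 41.8% and 35.3%, and 47.5% and 48.2%, a rise of 0.79 ± 0.18 (adjusted p = 0.00166). RpLP1 and RpLP2 did not overlap between ages either, and all 3 stalk genes were called below the members' median at 0-2 h and none of them at 8-10 h.

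RpL10Ab, the protein of the L1 stalk that moves with the exiting tRNA, had 30.9% and 27.0% at 0-2 h, 45.1% and 43.6% at 4-6 h, and 52.0% and 52.9% at 8-10 h. It showed the largest rise in the earlier step, 0.67 ± 0.17 (adjusted p = 0.00446), and the second largest over the whole interval, 1.00 ± 0.17 (adjusted p = 1.86e-04). Its copy RpL10Aa was near background. RpL3, a core protein near the peptidyl transferase centre, had 36.1% and 32.5%, 48.6% and 48.7%, and 50.4% and 52.3%, with most of its rise complete by 4-6 h (0.60 ± 0.17, adjusted p = 0.00963). RpS27A and RpL40 are both made as fusions with ubiquitin. RpS27A had 34.3% and 33.8%, 49.2% and 46.2%, and 55.4% and 53.4%, a rise of 0.84 ± 0.17 over the whole interval (adjusted p = 7.24e-04), while RpL40 had 38.1% and 39.4%, 38.6% and 36.4%, and 48.7% and 46.7%, a difference of 0.37 ± 0.17 that did not pass (adjusted p = 0.0905). RpL28 also rose in both tests that start from 0-2 h, by 0.49 and by 0.82 on the Logit scale (adjusted p = 0.0294 and 8.26e-04). RpL10Ab, RpL17, RpL28, RpL3, RpL37A, RpLP0, RpLP1, RpLP2, RpS20, RpS26 and RpS27A kept the rise from 0-2 to 8-10 h under every alternative computed for it, each gradient left out included. Some of these alternatives could not change a call. The pool counted once adds the same amount to every Logit. The settings with all probe sets and with no copies or -like genes reuse the same fit.

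**Figure D2:**
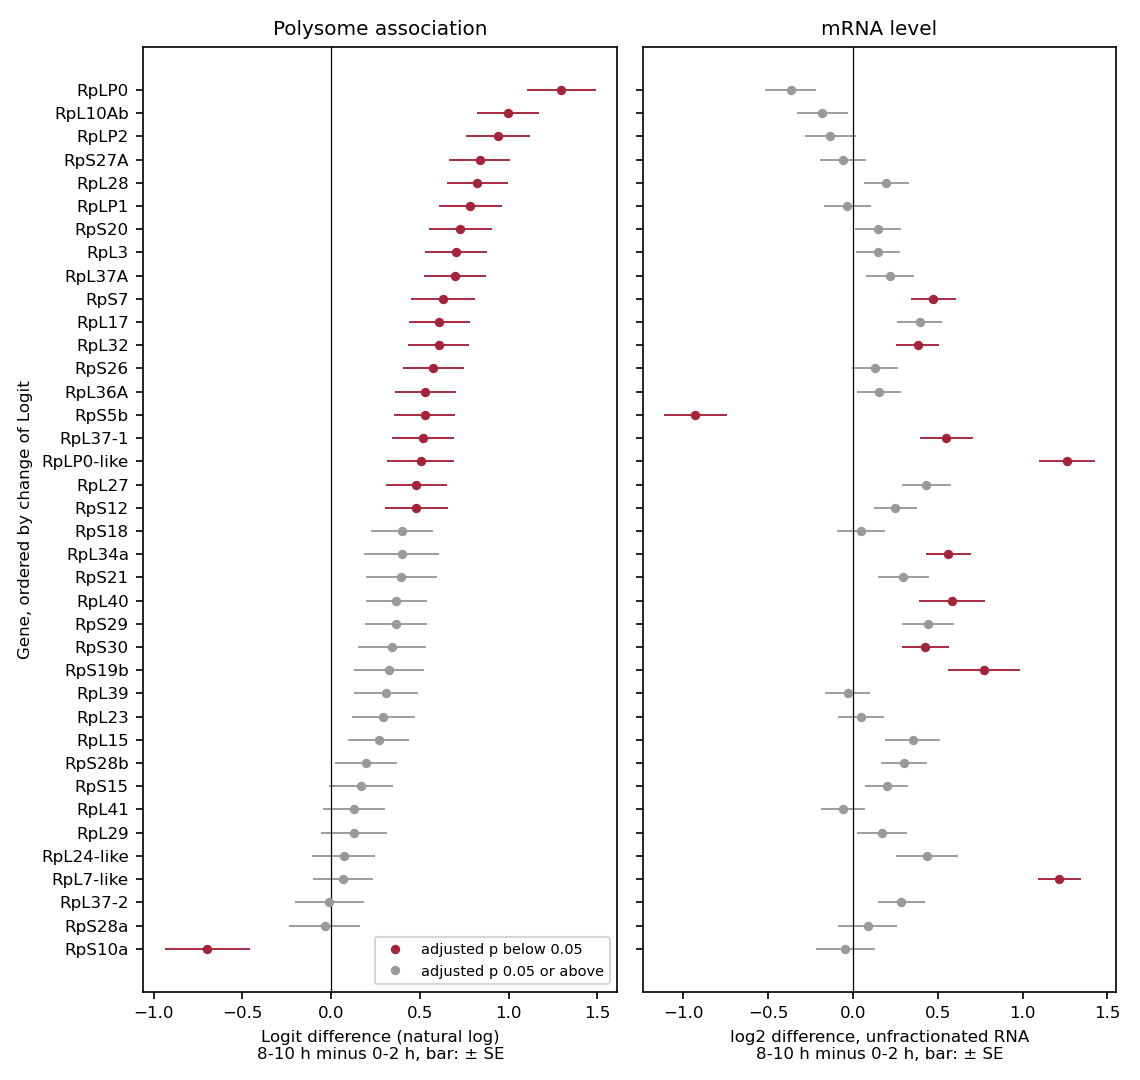
Difference between 8-10 h and 0-2 h (8-10 minus 0-2) of the Logit (left) and of the log2 signal in unfractionated RNA (right) for the 38 tested members, ordered by the Logit difference, with bars of 1 SE; red marks an adjusted p below 0.05. RpLP0 leads on the left with 1.30, RpS10a is the 1 fall, and on the right RpLP0-like (1.26) and RpL7-like (1.22) rise most while RpS5b falls by 0.93.

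Other subunit proteins were not called. RpL39, a very short protein that lines the exit tunnel, had 31.3% and 26.7% at 0-2 h, 34.7% and 29.6% at 4-6 h, and 35.7% and 35.7% at 8-10 h, with RpL7-like the lowest of all members at that age. Its Logit difference over the whole interval was 0.31 ± 0.18 (adjusted p = 0.175). RpL41, shorter still, had 44.9% and 40.0%, 45.8% and 42.0%, and 45.9% and 45.3%, a difference of 0.13 ± 0.18 (adjusted p = 0.599). The paper assigns several ribosomes per mRNA to the fractions counted in occupancy. Whether reading frames this short can hold that many was not tested, so for RpL39 and RpL41 these values need not measure polysomes. RpS29 had 31.9% and 29.5%, 39.0% and 34.3%, and 40.4% and 37.5% (0.37 ± 0.18, adjusted p = 0.101). RpL15 and RpS18 had the highest occupancies of the subunit proteins at 8-10 h, with 56.4% and 54.3% and with 55.6% and 54.1%. RpL15 was already at 47.3% and 50.1% at 0-2 h, and its difference did not pass (adjusted p = 0.222). The rises that did and did not pass were not tested against each other.

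Each member was also set against the median Logit of the members in the same gradient. At 0-2 h 10 members lay above that median and 10 below, at 4-6 h 5 and 2, and at 8-10 h 3 and 4. At an unadjusted p under 0.05 these numbers were 10 and 11, 5 and 2, and 3 and 4. The adjustment thus changed little, since most probe sets lay above the members' median. Over all probe sets 82.4% lay above and 4.61% below at 0-2 h, 86.3% and 1.37% at 4-6 h, and 64.7% and 3.79% at 8-10 h. Below it were RpLP0 at 0-2 and 4-6 h, by 0.99 (adjusted p = 1.98e-05) and 0.65 (adjusted p = 0.00118), RpL39 at all 3 ages, by 0.39, 0.42 and 0.55 (adjusted p = 0.0184, 0.0121 and 0.00286), and RpS5b and RpS29 at 0-2 and 8-10 h. RpL10Ab, RpL28, RpL37A, RpLP1, RpLP2 and RpS20 were below at 0-2 h alone, and RpL7-like at 8-10 h alone. Above it at every age were RpLP0-like, RpS10a and RpS19b, and RpL15 and RpS18 were above at 0-2 and 4-6 h. For the counts with a gradient left out, the share of all probe sets called is not given. The place of the members relative to it is open there. Without gradient 2 of 0-2 h the number below at 0-2 h was 2, without either of these gradients 6 lay above, and at 4-6 h the number above was 2 without gradient 2 of that age and the number below 1 without either gradient. Without gradient 1 of 8-10 h, 2 lay below at that age.

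The genes of the copy pairs differed among themselves more than the subunit proteins, with SDs over the 10 copy genes of 15.8, 10.4 and 8.07 percentage points. RpS5b, a paralogue of RpS5a known for its high level in the female germ line, had 27.2% and 26.6% at 0-2 h, 37.5% and 39.6% at 4-6 h, and 37.5% and 39.3% at 8-10 h. Its Logit rose by 0.53 ± 0.17 in the earlier step (adjusted p = 0.0178), and its mean at 8-10 h was below that of every member other than RpL39 and RpL7-like. RpS10a and RpS19b are likewise copies known for germ line expression. RpS10a had 72.9% and 83.0%, 53.3% and 68.4%, and 68.0% and 60.4%, and its Logit fell by 0.83 ± 0.24 from 0-2 to 4-6 h (adjusted p = 0.00875) and by 0.70 ± 0.24 from 0-2 to 8-10 h (adjusted p = 0.0227). Its log2 signal never exceeded 7.41 on a gradient array. Both calls were lost without gradient 2 of 0-2 h, the first also without gradient 1 of 4-6 h, and the other also without gradient 2 of 8-10 h and without the signal filter. RpS19b had 56.1% and 58.2%, 70.9% and 63.0%, and 69.5% and 60.1%, without a call and at a log2 signal of at most 6.55. RpS28b had 42.8% and 42.0%, 46.4% and 43.4%, and 49.9% and 44.7%, while its copy RpS28a had 55.7% and 55.0%, 49.0% and 47.2%, and 61.3% and 47.4% at a signal of at most 6.52. The gradients of RpS28a at 8-10 h thus lay far apart. RpL37-1 rose from 0-2 to 8-10 h by 0.52 ± 0.17 (adjusted p = 0.021) with 33.2% and 36.5%, 40.3% and 38.0%, and 48.8% and 45.8%, and its copy RpL37-2 had 52.0% and 52.1%, 39.1% and 47.7%, and 56.8% and 46.7% (difference -0.01 ± 0.20, adjusted p = 0.975). RpL34a had 31.5% and 44.9%, 38.2% and 36.5%, and 52.7% and 42.6%, with gradients of different ages overlapping. At 0-2 h the tested copies of low signal, RpS10a, RpS19b, RpS28a and RpL37-2, thus had higher occupancies than the other tested copies; the part of background signal in this was not tested.

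Of the -like genes, RpLP0-like, RpL24-like and RpL7-like are the fly counterparts of the yeast factors Mrt4, Rlp24 and Rlp7, which act in large-subunit assembly and are not ribosomal proteins of the mature particle. RpLP0-like had the highest occupancy of the tested members at 4-6 and 8-10 h, 63.5% and 72.8% at 0-2 h, 74.6% and 75.04% at 4-6 h, and 76.9% and 79.2% at 8-10 h. Its Logit rose by 0.50 ± 0.19 over the whole interval (adjusted p = 0.0353). It lay above the members' median by 1.28, 1.42 and 1.31 at the 3 ages (adjusted p = 2.11e-07, 7.9e-08 and 3.8e-07). RpL7-like had 33.9% and 34.6%, 38.2% and 37.6%, and 36.4% and 35.1%, and had a difference of 0.07 ± 0.17 over the whole interval (adjusted p = 0.802). RpL24-like had 43.5% and 48.04%, 46.5% and 47.2%, and 50.4% and 44.6% (0.07 ± 0.18, adjusted p = 0.796). These 3 assembly-factor genes therefore spanned nearly the whole range of the members at 8-10 h.

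Fraction by fraction, the members' profile declined toward the heavy end of the gradient. At 0-2 h the median member had 63.1% of its signal in fractions 1-5, 9.15% in fraction 6, 8.55% in fraction 7, 7.07% in fraction 8, 4.27% in fraction 9, 2.34% in fraction 10, 2.09% in fraction 11 and 2.67% in fraction 12. At 4-6 h these medians were 57.3%, 9.17%, 8.83%, 8.03%, 6.05%, 3.59%, 2.71% and 3.36%, and at 8-10 h 51.1%, 9.12%, 9.92%, 9.31%, 7.13%, 4.24%, 4.26% and 5.12%. Over the genes tested the medians of fractions 6 to 12 lay between 7.36% and 8.81% at every age. Among fractions 6 to 12 the peak of the 38 tested members lay in fraction 6 for 23 at 0-2 h, 23 at 4-6 h and 5 at 8-10 h, where 17 peaked in fraction 7 and 8 in fraction 8. The gradients of 8-10 h differed in the heavy fractions, with members' medians of 8.38% and 4.99% in fraction 9 and of 3.82% and 6.30% in fraction 12 for gradients 1 and 2.

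**Figure D3:**
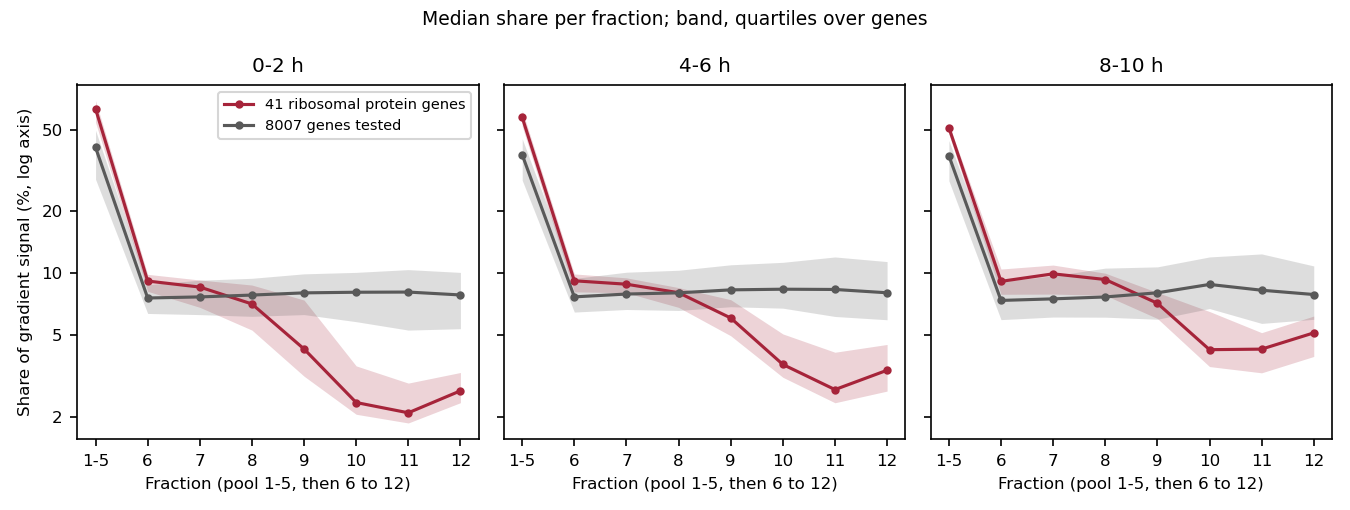
Median share of the gradient signal (y axis, %, log scale) in the pool of fractions 1-5 and in fractions 6 to 12 (x axis) at the 3 ages, for the 41 ribosomal protein genes (red) and the 8007 genes tested (grey), with bands from the lower to the upper quartile over genes. The members' share in fraction 11 was 2.09%, 2.71% and 4.26% at 0-2, 4-6 and 8-10 h, while the grey line stays between 7.36% and 8.81% in fractions 6 to 12.

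The difference between 8-10 and 0-2 h was tested in each fraction. The share in fractions 1-5 fell in 12 of 38 members, against 26.5% of all probe sets. In fraction 6 the share rose in 0 members (limma; 2 at an unadjusted p under 0.05), against 6.07%. In fraction 7 it rose in 7, against 10.3%, in fraction 8 in 9, against 7.11%, and in fraction 9 in 3, against 6.33%. With a replicate block 10 rose in fraction 9, against 8.08%. In fraction 10 it rose in 9, against 10.7%, in fraction 11 in 22, against 15.4%, and in fraction 12 in 18, against 14.1%. With a variance trend 19 fell in fractions 1-5, against 28.5%, and 9 rose in fraction 12, against 15.8%. The members' median log2 difference in fractions 7 to 12 was 0.19, 0.40, 0.50, 0.70, 0.77 and 0.78. With both gradients of 8-10 h it was thus larger toward the heavy end. Without gradient 1 of 8-10 h these medians were 0.20, 0.22, 0.26, 0.55, 0.91 and 1.17. Without gradient 2 of 8-10 h they were 0.23, 0.56, 0.90, 0.85, 0.61 and 0.39, highest in fraction 9, so this order was not kept. In the opposite direction 1 member, RpS10a, rose in fractions 1-5, by 0.73 on the log2 scale, against 19.9% of probe sets, and 1, RpLP0-like, fell in fraction 6, by 0.61, against 6.77%. In fractions 7 to 12 the share fell in 0 members (limma; 0, 0, 0, 2, 2 and 1 at an unadjusted p under 0.05), against 9.83%, 2.65%, 4.83%, 4.61%, 9.43% and 9.14%. RpLP0 had 8.65% and 6.79% of its signal in fraction 10 at 8-10 h, against 1.52% and 1.24% at 0-2 h, a log2 difference of 2.48 ± 0.26 (adjusted p = 0.00222). RpL3 had 9.89% and 5.78% in fraction 11 at 8-10 h, against 3.06% and 2.66% at 0-2 h. RpS5b rose in fractions 8 and 9, by 1.04 and 1.10, and was not called in a heavier fraction. The paper assigns more ribosomes per mRNA to each heavier fraction, and its RpL36 mRNA, of short reading frame, peaked in fractions 6 and 7. Reading-frame lengths of the members were not analysed here. Whether their signal in fractions 11 and 12 came from polysomes of that size was not tested.

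**Figure D4:**
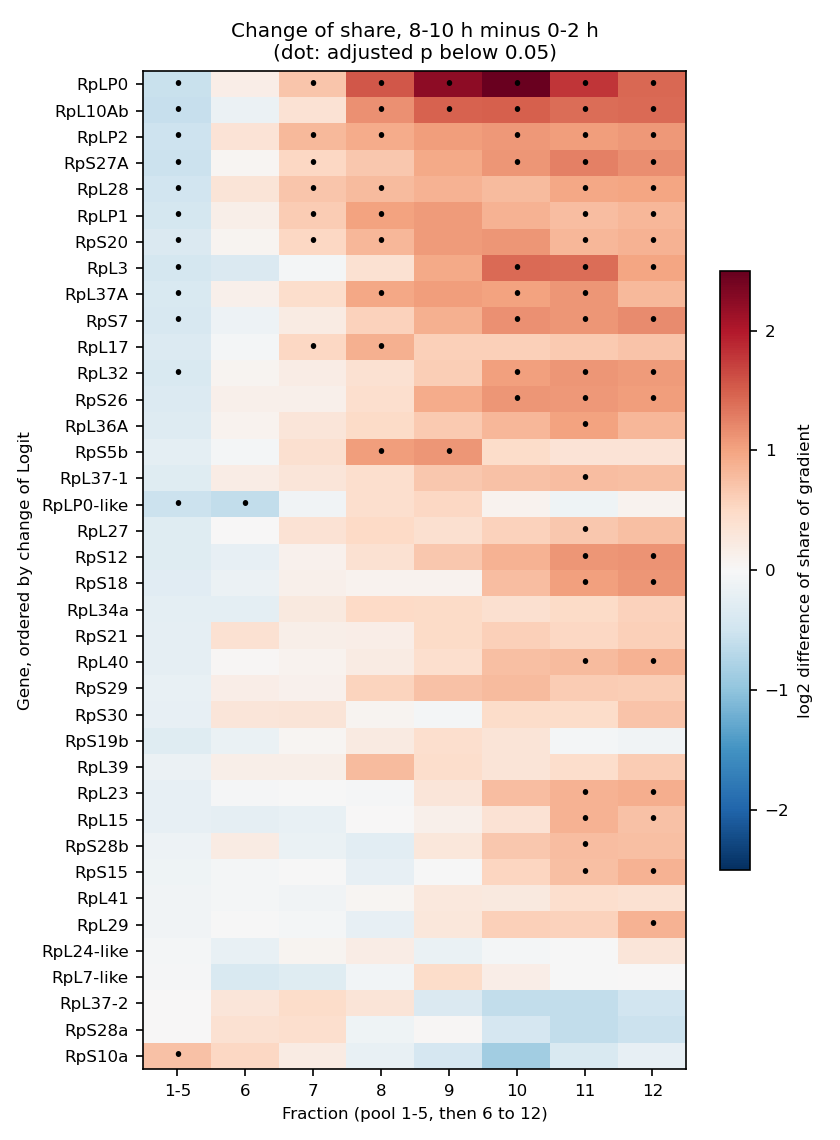
Log2 difference of the share of the gradient between 8-10 h and 0-2 h (8-10 minus 0-2, colour) in the pool of fractions 1-5 and fractions 6 to 12 (columns) for the 38 tested members (rows, ordered by the Logit difference); a dot marks an adjusted p below 0.05. Dots fill fractions 11 (22 genes) and 12 (18 genes) and are absent from the rises in fraction 6, and the darkest cell is RpLP0 in fraction 10 at 2.48.

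The counts moved when a gradient was left out, which leaves its age with 1 gradient taken to vary like those of the other ages. The members' median difference in fraction 11 was 0.74 and 0.74 without gradient 1 and gradient 2 of 0-2 h, close to 0.77 with both, while the share of all probe sets called there was 6.16% and 6.82%. Without gradient 1 and without gradient 2 of 8-10 h the median in fraction 9 was 0.26 and 0.90, and in fraction 12 it was 1.17 and 0.39. Without gradient 1 and without gradient 2 of 0-2 h the median in fraction 7 was 0.12 and 0.255. In fraction 8 it was 0.35 and 0.44, and in fraction 9 it was 0.49 and 0.61. In fraction 10 it was 0.58 and 0.85, and in fraction 12 it was 0.91 and 0.69. The median in fractions 1-5 was -0.25 and -0.33. Fewer members were called in fractions 1-5 and 7 to 12 than with both gradients, and so were fewer of all probe sets. The lower counts alone therefore do not show a change of the members. Without gradient 1 and without gradient 2 of 8-10 h the median was 0.22 and 0.56 in fraction 8. It was -0.24 and -0.34 in fractions 1-5. In both fractions fewer members and fewer of all probe sets were called than with both gradients. In fraction 9 more members and more of all probe sets rose without either gradient. In fraction 12 more of all probe sets rose without either gradient, while more members rose without gradient 1 and fewer without gradient 2. Without gradient 2 of 8-10 h the median was 0.85 in fraction 10, where more members and more of all probe sets rose. It was 0.23 in fraction 7, where fewer of both rose. Leaving out either gradient of 4-6 h left the medians of this contrast as they were. Fewer members and fewer of all probe sets then rose in fractions 9 and 10 and fell in fractions 1-5.

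The polysome weight, the log2 ratio of mean signal in fractions 8-12 over that in fractions 6-7, measures where in these fractions the signal of an mRNA lay. It does not measure how much of it was there, nor whether the heavier signal came from polysomes. The weight rose at 8-10 h relative to 0-2 h in 12 of 38 members, against 19.2% of probe sets, and fell in 2, against 9.28%. With a variance trend 7 rose, 18.4% against 20.4% of probe sets, so the excess over the background was not kept. RpLP0 (1.55 ± 0.19, adjusted p = 7.55e-04), RpL10Ab (1.29 ± 0.18, adjusted p = 0.00118) and RpL3 (1.26 ± 0.19, adjusted p = 0.00138) led, and the falls were those of RpS10a and RpS28a. From 0-2 to 4-6 h it rose in 2, RpL3 and RpL10Ab, against 12.7% (1 with a variance trend), and fell in 1, RpS10a, against 5.53%. From 4-6 to 8-10 h it rose in 2, RpLP0 and RpLP0-like, against 4.03%, and fell in 0, against 1.21% (0 also at an unadjusted p under 0.05). For the counts with a gradient left out, the share of all probe sets called is not given. The place of the members relative to it is open there. The rises from 0-2 to 4-6 h numbered 0 without either gradient of 0-2 h and 1 without either of 4-6 h, and the fall was lost without either gradient of 0-2 h or gradient 2 of 4-6 h and joined by another without gradient 1 of 4-6 h. The rises from 4-6 to 8-10 h numbered 0 without either gradient of 0-2 h or gradient 1 of 4-6 h, and 1 without gradient 2 of 4-6 h or of 8-10 h. The rises over the whole interval numbered 3 without either gradient of 0-2 h and 7 without gradient 1 of 8-10 h, and the falls 0 without either gradient of 0-2 h and 1 without gradient 2 of 8-10 h.

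The level of the members in unfractionated RNA was tested in the same contrasts; the part of the signal ceiling in these differences was not tested. It rose from 0-2 to 4-6 h in 7 of 38 members, against 25.9% of probe sets, and fell in 0, against 24.6% (limma; 1 at an unadjusted p under 0.05). From 4-6 to 8-10 h it rose in 0, against 16.2% (0 at an unadjusted p under 0.05), and fell in 1, RpL37-2, against 14.1%. From 0-2 to 8-10 h it rose in 9, against 27.2%, and fell in 1, RpS5b, against 27.1%. In each of these tests the share of members called was below the background, but with a variance trend 16 members rose from 0-2 to 4-6 h, 42.1% against 26.4% of probe sets, and 17 from 0-2 to 8-10 h, 44.7% against 27.7%, so the place of the members relative to the background depends on this setting. With that trend 1 fell to 4-6 h and 2 to 8-10 h. The median log2 difference over the members was 0.19, 0.02 and 0.21 in the contrasts 4-6 minus 0-2 h, 8-10 minus 4-6 h and 8-10 minus 0-2 h, against 0.07, -0.05 and -0.08 over the genes tested.

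The assembly-factor genes RpL7-like and RpLP0-like had the largest rises. RpL7-like had log2 signals of 10.08 and 10.01 at 0-2 h, 11.26 and 11.26 at 4-6 h, and 11.24 and 11.29 at 8-10 h, a rise of 1.21 ± 0.13 to 4-6 h and of 1.22 ± 0.13 to 8-10 h (adjusted p = 0.00102 and 8.61e-04). RpLP0-like had 8.75 and 9.10, 9.91 and 9.92, and 10.19 and 10.19, rises of 0.99 ± 0.16 and 1.26 ± 0.16 (adjusted p = 0.00474 and 0.00176), so that its level and its occupancy rose together, while for RpL7-like the Logit difference did not pass. RpL24-like rose by 0.57 ± 0.18 to 4-6 h (adjusted p = 0.0462). Of the copies, RpL34a rose by 0.63 and 0.56 and RpL37-1 by 0.52 and 0.55 in the contrasts from 0-2 h, and RpL37-2 had 5.55 and 5.59, 6.43 and 6.62, and 5.88 and 5.83, highest at 4-6 h (0.96 ± 0.14 to 4-6 h, adjusted p = 0.00304, and -0.67 ± 0.14 from there to 8-10 h, adjusted p = 0.0196). RpS19b had 4.59 and 5.01, 5.40 and 5.35, and 5.77 and 5.39, a rise of 0.77 ± 0.21 to 8-10 h (adjusted p = 0.0269). These signals lay near the array medians of all probe sets, 4.56 to 5.13, and the call held in 7 of 11 alternatives. The settings with all probe sets and with no copies or -like genes reuse the same fit, so they could not change this call. RpS5b had 13.32 and 13.76, 13.05 and 13.10, and 12.58 and 12.64, and fell by 0.93 ± 0.18 to 8-10 h (adjusted p = 0.00853); its level fell while its occupancy rose. Of the 26 subunit proteins RpS7 rose to 4-6 h, and RpL32, RpL40, RpS30 and RpS7 rose to 8-10 h, by 0.38 to 0.59. With a replicate block RpS7 did not pass to 4-6 h (adjusted p = 0.0541), nor did RpL32, RpL40 and RpS30 to 8-10 h (adjusted p = 0.0746, 0.0513 and 0.0641). RpLP0, the member with the largest rise in occupancy, had 13.41 and 13.68, 13.28 and 13.29, and 13.15 and 13.21, a difference of -0.37 ± 0.15 from 0-2 to 8-10 h that did not pass (adjusted p = 0.0925).

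Single arrays moved these counts. The share of all probe sets called without an array is not given, so the place of the members relative to it is open. The rises to 4-6 h numbered 11 without array 1 of 0-2 h, 4 and 3 without array 1 and array 2 of 4-6 h, and 4 without either array of 8-10 h, and 2 fell without array 1 of 0-2 h. The rises to 8-10 h numbered 3 without either array of 4-6 h and 2 and 3 without array 1 and array 2 of 8-10 h. The falls to 8-10 h numbered 2 without array 1 of 0-2 h and 0 without array 1 of 8-10 h, and the fall of RpL37-2 from 4-6 to 8-10 h was lost without any 1 array of these ages and joined by another without either array of 0-2 h.

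In EDTA gradients the pool of fractions 1-5 did not gain signal of most members. At 0-2, 4-6 and 8-10 h, 24, 33 and 29 of the 38 tested members had a lower signal there than in untreated gradients. How many of all genes tested did so is not given. Of the 41 members, 30 reached a log2 signal of 13 or more on a gradient array, and the part of this ceiling was not tested. The values therefore do not show whether EDTA released these mRNAs from ribosomes. The pool had a median log2 difference, EDTA minus untreated, of -0.15, -0.15 and -0.12 over the 38 members at 0-2, 4-6 and 8-10 h, against -0.02, 0.12 and 0.11 over the genes tested. At 0-2 and 4-6 h 0 members rose, against 6.33% and 12.9% of probe sets, and 0 fell, against 2.36% and 3.49% (limma, with 1 EDTA array per age taken to vary like the untreated pairs; at an unadjusted p under 0.05, 0 rose at both ages, and 0 and 2 fell). At 8-10 h 1 rose, against 12.6%, and 0 fell, against 3.52% (0 also at an unadjusted p under 0.05). With a variance trend 3 fell at 0-2 h, 7.89% of members against 2.88% of probe sets. At 4-6 h 2 fell with that trend, 5.26% against 3.59%. With 1 EDTA array per age these fits have no spread between EDTA gradients and are no replicated test of EDTA. The 1 rise was that of RpLP0-like, with a log2 signal of 10.08 in EDTA and of 9.22 and 8.85 in untreated gradients at 8-10 h, a difference of 1.05 ± 0.28 (adjusted p = 0.0352). The call was lost in 5 of its 11 alternatives, without untreated gradient 2 of 8-10 h and without any gradient of the other ages. The settings with all probe sets and with no copies or -like genes reuse the same fit, so they could not change this call. At 0-2 h RpLP0-like had 8.59 in EDTA and 9.21 and 8.96 in untreated gradients, and at 4-6 h 9.70 in EDTA and 9.46 and 9.30 in untreated gradients. The difference between its EDTA effects at 8-10 and 0-2 h, 1.54, did not pass (adjusted p = 0.0836). RpLP0 had 13.06 in EDTA and 13.08 and 13.15 in untreated gradients at 8-10 h.

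Of the 4 members with further probe sets, each had a weaker one that departed from the probe set used. RpL3 has 2 of them. Probe set 1634685_at had occupancies of 52.4% and 52.6% at 0-2 h, 35.1% and 27.0% at 4-6 h, and 14.4% and 17.6% at 8-10 h. Its Logit was lower by 1.76 over the whole interval. Its log2 signal in unfractionated RNA was 4.32 and 4.44, 5.82 and 5.82, and 6.56 and 6.50, a rise of 2.15 ± 0.13 (adjusted p = 1.73e-04). Probe set 1625889_at of RpL3 had 45.0% and 52.5%, 35.4% and 29.2%, and 31.0% and 30.2% (fall of 0.77 ± 0.19, adjusted p = 0.00253), with log2 signals of 6.37 and 6.76, 8.37 and 8.40, and 9.28 and 9.31. Both thus moved against the strong RpL3 probe set, whose occupancy rose. The medians of all probe sets on an array lay between 4.56 and 5.13. On the gradient arrays of 0-2 h 1634685_at had log2 signals of 3.65 to 4.32, below these medians, and 1625889_at had 4.56 to 6.04. The occupancy of 1634685_at at 0-2 h lay near the 58.3% of an even signal. The part of background signal in both falls was not tested. The second RpS30 probe set, 1625943_at, had 80.8% and 90.2%, 81.5% and 72.9%, and 77.4% and 75.03%, and its Logit fell by 0.66 ± 0.24 (adjusted p = 0.0298) with its level, 8.08 and 8.25 at 0-2 h, 7.91 and 7.57 at 4-6 h, and 6.72 and 6.75 at 8-10 h. RpS30 in animals is made as a fusion with a ubiquitin-like protein. The weak RpS7 probe set, 1627181_at, had 43.7% and 45.2%, 45.1% and 40.0%, and 22.9% and 33.4%, a Logit lower by 0.73 over the whole interval. Its log2 signals were 4.80 to 5.45 in unfractionated RNA and 4.11 to 5.28 on the gradient arrays of 0-2 h. These lay near the array medians, and the part of background signal was not tested. The strong RpS29 probe sets lay close together, with 41.8% and 36.0% at 8-10 h for 1626693_at and 40.4% and 37.5% for the one used. The weakest RpS29 probe set, 1625248_at, did not pass the filter and was not tested; it had 61.7% and 52.2% at 0-2 h, 40.0% and 38.1% at 4-6 h, and 27.1% and 36.1% at 8-10 h, at log2 signals in unfractionated RNA of 3.06 to 3.79. Which transcripts each probe set reads was not analysed here.

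**Figure D5:**
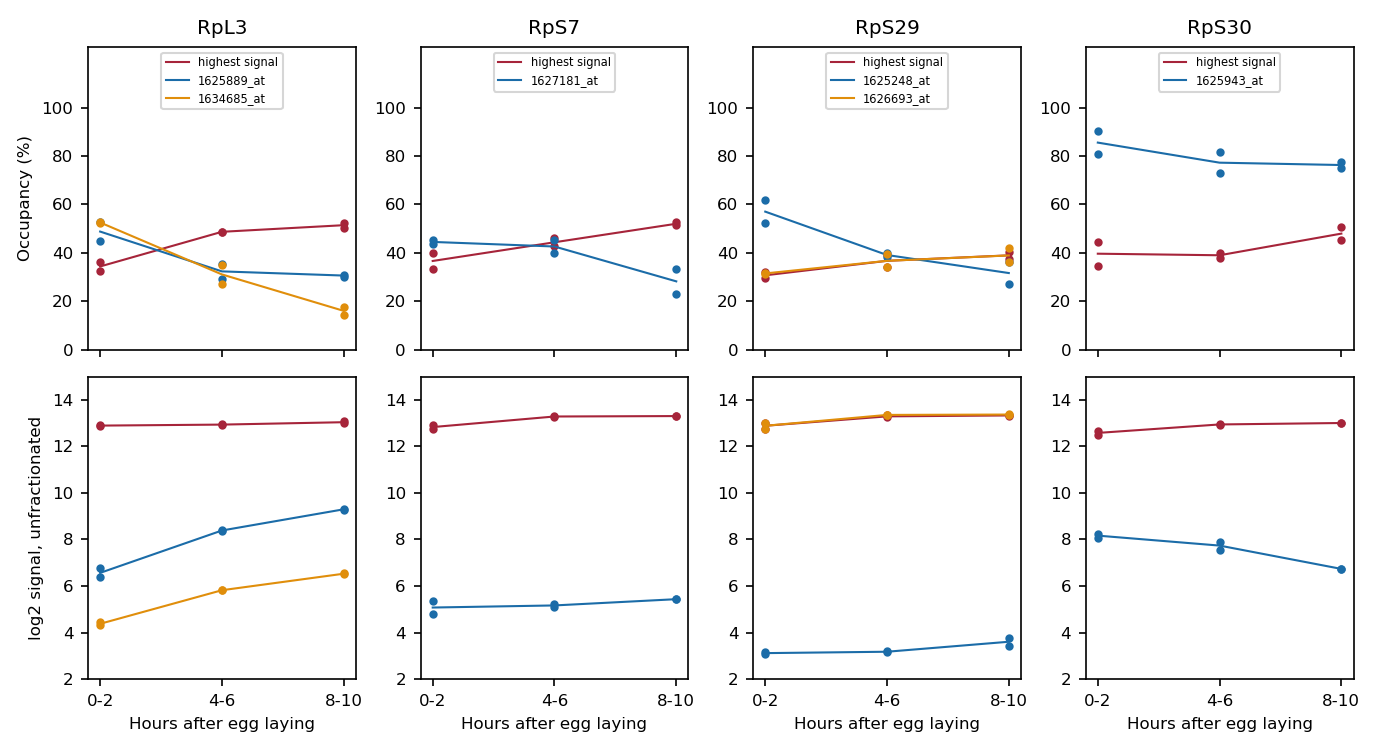
Occupancy (upper row, %) and log2 signal in unfractionated RNA (lower row) at the 3 ages (x axis) for the probe sets of RpL3, RpS7, RpS29 and RpS30; red marks the probe set used for the gene, points single gradients or arrays, and lines their means. RpL3 probe set 1634685_at falls to 14.4% and 17.6% in occupancy at 8-10 h while the red one reaches 50.4% and 52.3%.

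Other genes of translation were counted beside the members, from the lists given under the processing. Of 69 mitochondrial ribosomal protein genes the Logit rose in 51 and fell in 2 from 0-2 to 8-10 h, with median occupancies of 62.2%, 73.9% and 79.0% at the 3 ages, and their level rose in 2 and fell in 22. Of 18 ribosome assembly genes 9 rose and 3 fell in Logit, with medians of 60.3%, 74.3% and 70.1%, and 8 rose and 1 fell in level. Of 15 genes of the initiation factor eIF3 1 rose and 5 fell in Logit, with medians of 52.6%, 43.8% and 43.4%, and 9 rose and 0 fell in level. Of 9 elongation and related factors 2 rose and 2 fell in Logit, with medians of 55.4%, 58.0% and 55.6%. Of 11 genes of the TOR pathway 4 rose and 2 fell in Logit. The background of these counts is that given above for the same tests, and the lists were not tested against the members. In the elongation list Rack1, a protein of the small subunit without an Rp name, had mean occupancies of 28.6%, 43.2% and 53.9% and a Logit that rose by 1.07 ± 0.17 (adjusted p = 9.16e-05); it was singled out after its values were seen.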

How the data were processed

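The authors hybridised RNA of the gradient fractions and of unfractionated embryos to Drosophila Genome 2.0 arrays and deposited log2 values of robust multichip average (RMA) for 18952 probe sets on 66 arrays. Because RMA scales arrays to each other, shares within a gradient compare normalised signals and not amounts of RNA. The labels call the gradients of an age biological replicates. Signals were made linear, the pool of fractions 1-5 counted 5 times, and shares, the Logit and the polysome weight computed per gradient (Python 3.11.15, pandas 2.3.3). Probe sets at or above the median mean signal in at least 1 age, 10358 in all, entered a linear model on age (limma 3.58.1 under R 4.3.3), and p-values were adjusted by Benjamini-Hochberg within each contrast, with a threshold of 0.05. With 2 arrays a group, their number limits the precision. The fit was tested on simulated data with known changes.

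Symbols came from the platform annotation, updated by gene identifier: 13647 probe sets had 1 symbol, 402 several and 4903 none. Genes named were the 5 of lowest and 5 of highest occupancy at 0-2 h, up to 6 called members with the largest change in each direction for each contrast of the Logit, of unfractionated RNA and of EDTA, the stalk, ubiquitin-fusion, -like and copy genes, and RpL41; others were named after their values were seen. Lists beside the members held elongation and related factors (eEF genes, pAbp, Tctp, Rack1, La, Nlp), eIF3 genes, ribosome assembly genes (such as Fib, Nop56 and bys), TOR pathway genes (such as Tor, S6k and Thor) and mitochondrial ribosomal proteins (mRp). Members and lists were chosen with earlier results of these data known. Alternatives were: the pool counted once, fractions 6 and 7 counted with 1-5, no filter, the top 25% of signal, a variance trend, a replicate block, each replicate left out, all probe sets, and no copies or -like genes. Protein lengths and start-site sequences were not analysed here.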

Additional observations from a re-analysis of the deposited data

How the results depend on the processing

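Outside the tests of single fractions there were 100 calls on single members. Of these, 33 held under every alternative computed for them and 0 reversed. Some alternatives could not change a call. The pool counted once adds the same amount to every Logit. The settings with all probe sets and with no copies or -like genes reuse the same fit. The calls in single fractions were followed only as counts. Where counts changed, the cause was not tested beyond the smaller number of members or samples in some alternatives. The labels name no source shared by samples of the same number. The correlations of their deviations in the 3 contrasts were -0.04, -0.09 and -0.29 for the Logit, and 0.15, 0.58 and 0.25 for unfractionated RNA, where the numbers may therefore pair the arrays. With a replicate block, 58 of 65 calls held and 1 count moved by over 1.5 times, with 10 rises in fraction 9 against 3.

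With every probe set of the members, the Logit fell in 3 (4-6 minus 0-2 h), 1 (8-10 minus 4-6 h) and 5 (8-10 minus 0-2 h), the polysome weight fell in 2 (4-6 minus 0-2 h) and 5 (8-10 minus 0-2 h), the level rose in 2 and fell in 2 (8-10 minus 4-6 h) and fell in 2 (8-10 minus 0-2 h), the share in fraction 6 rose in 1, 4 and 8 lay below the members' median at 4-6 and 8-10 h, and 2 fell in EDTA at 8-10 h. With fractions 6 and 7 counted with 1-5, 5 lay below the median at 4-6 h and 5 above it at 8-10 h. The median occupancies were then 19.5%, 23.0% and 29.7% at the 3 ages. With the pool counted once they were 74.5%, 78.8% and 82.7%. Over members below a log2 signal of 13, 3 of which failed the signal filter, they were 55.9%, 49.7% and 56.2%. Without a filter, the fall of the Logit from 0-2 to 8-10 h numbered 0, and 9 and 5 lay above the median at 4-6 and 8-10 h. In the top 25% of signal the Logit fell in 0 in both contrasts from 0-2 h, the weight in 0 and 0, and the level from 4-6 to 8-10 h in 0, while 6, 3 and 1 lay above the median at the 3 ages.

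With a variance trend the weight rose in 1 (4-6 minus 0-2 h) and 7 (8-10 minus 0-2 h), the level rose in 16 and fell in 1 (4-6 minus 0-2 h) and rose in 17 and fell in 2 (8-10 minus 0-2 h), the share in fractions 1-5 fell in 19 and that in fraction 12 rose in 9, and 3 and 2 fell in EDTA at 0-2 and 4-6 h. Without the copies and -like genes, the Logit fell in 0 and 0 in the contrasts from 0-2 h, the weight rose in 1 and fell in 0 (4-6 minus 0-2 h), rose in 1 (8-10 minus 4-6 h) and fell in 0 (8-10 minus 0-2 h), the level rose in 1 (4-6 minus 0-2 h), fell in 0 (8-10 minus 4-6 h), and rose in 4 and fell in 0 (8-10 minus 0-2 h), the share in fraction 9 rose in 1, 4, 2 and 0 lay above the members' median at the 3 ages and 2 below it at 8-10 h, 0 rose in EDTA at 8-10 h, and the median occupancy at 4-6 h was 40.7%.

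With each replicate left out in turn, the counts ranged, for the contrasts 4-6 minus 0-2 h, 8-10 minus 4-6 h and 8-10 minus 0-2 h in turn, as follows. Rises of the Logit numbered 1 to 7, 0 to 1 and 11 to 17, and falls 0 to 1, 0 to 0 and 0 to 1. Rises of the weight numbered 0 to 2, 0 to 2 and 3 to 12, and falls 0 to 2, 0 to 0 and 0 to 3. Rises of the level numbered 3 to 11, 0 to 0 and 2 to 11, and falls 0 to 2, 0 to 2 and 0 to 2. Falls of the share in fractions 1-5 numbered 4 to 7, and rises in fractions 6 to 12 numbered 0 to 0, 0 to 6, 0 to 10, 0 to 20, 0 to 14, 4 to 27 and 2 to 31. At 0-2, 4-6 and 8-10 h, 6 to 10, 2 to 5 and 3 to 3 lay above the members' median and 2 to 11, 1 to 2 and 2 to 4 below it. In EDTA rises numbered 0 to 0, 0 to 0 and 0 to 1, and falls 0 to 0, 0 to 1 and 0 to 0. The median occupancy lay between 35.6% and 39.4%, 40.8% and 42.8%, and 47.4% and 50.5%. Without a gradient of 0-2 h the share of all probe sets called in single fractions was lower too. Outside single fractions that share is not given with a replicate left out, so the place of the members relative to it is open. Comparisons with protein length and start-site sequence were not run. With 2 gradients and 1 EDTA gradient per age, precision is limited by their number.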
